A study of Rattus norvegicus with 10 samples.

Results

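The class I histone deacetylases Hdac1, Hdac2, Hdac3 and Hdac8 and 5 genes of the corepressor complexes they work in, Ncor1, Sin3a, Rcor1, Mta1 and Tbl1xr1, were followed by RNA-seq in 10 left hippocampi, each from 1 male rat of the TgF344-AD strain. The 9 genes were named as the enzymes that the drug RG2833 is aimed at and their scaffolds, among 17168 genes in the deposited tables. Of these, 8 were found under their own symbol. Rcor1 was found as RGD1305743, which RefSeq lists as its synonym and which the authors' table leaves without a gene name. All 9 passed the filter on low counts, as did 12161 genes in all.

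TgF344-AD rats (written TgF-344AD in the sample labels) carry human APP and presenilin transgenes with familial Alzheimer mutations, driven by the mouse prion promoter, and develop amyloid and tau pathology with age. Both groups carry the transgenes. The untreated group (5 rats) ate rodent chow without drug. The RG2833 group (5 rats) ate chow with 750 mg of RG2833 per kg from 5 months of age for 6 months. Both were sampled at 11 months, after anaesthesia with ketamine and xylazine and perfusion. A sentence of the design text names ibudilast as the drug, whereas its other sentences, the title and the sample labels name RG2833, which was followed. The left hippocampus was taken whole, so a transcript level averages over all its cells, and fewer cells of a type cannot be told apart from less RNA per cell. Nothing in the labels says more of how the animals were housed or paired.

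Class I histone deacetylases are zinc-dependent enzymes that remove acetyl groups from lysines of histones and other proteins. Hdac1 and Hdac2 are close paralogs that sit, alone or together, in the Sin3, NuRD, CoREST and MiDAC complexes, while Hdac3 is activated by binding to the NCoR corepressor with an inositol phosphate between them. Hdac8 works outside these complexes and deacetylates the cohesin subunit Smc3. In the rodent hippocampus Hdac2 and Hdac3 are known as brakes on the transcription that supports memory. RG2833 is a benzamide-type inhibitor of Hdac1 and Hdac3, so it acts on the proteins, whereas the transcripts were measured here.

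The upstream sequences of 3 deacetylase genes are shown because Hdac1 and Hdac3 are the named targets of the drug, and because Hdac2 and Hdac3 had the highest correlation of any pair of the 9 genes. In mouse cells the Hdac1 promoter is known to respond to deacetylase inhibitors through a CCAAT box and GC boxes. Each line gives the 250 bases before the RefSeq start of the gene in the GRCr8 assembly, 5′ to 3′ on the strand of the gene. Capitals mark the CCAAT box (letters CCAAT or, on the other strand, ATTGG) and the GC box (GGGCGG or CCGCCC).
Hdac1, chr5:147165388-147165637, minus strand: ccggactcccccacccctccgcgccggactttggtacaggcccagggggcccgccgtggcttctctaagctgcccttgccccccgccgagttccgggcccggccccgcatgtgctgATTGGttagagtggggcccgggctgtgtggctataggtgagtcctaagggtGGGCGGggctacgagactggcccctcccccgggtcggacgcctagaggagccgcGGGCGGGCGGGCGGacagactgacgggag
Hdac2, chr20:42102877-42103126, plus strand: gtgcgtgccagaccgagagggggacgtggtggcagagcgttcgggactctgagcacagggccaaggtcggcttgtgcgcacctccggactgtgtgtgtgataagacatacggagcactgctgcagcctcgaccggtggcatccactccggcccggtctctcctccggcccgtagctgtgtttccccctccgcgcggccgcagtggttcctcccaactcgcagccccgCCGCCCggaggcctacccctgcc
Hdac3, chr18:30041026-30041275, minus strand: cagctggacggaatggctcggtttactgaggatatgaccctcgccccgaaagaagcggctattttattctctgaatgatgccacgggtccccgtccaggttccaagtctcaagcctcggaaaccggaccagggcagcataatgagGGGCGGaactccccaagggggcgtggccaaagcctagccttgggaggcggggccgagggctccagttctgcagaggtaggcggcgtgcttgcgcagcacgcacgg

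The Hdac1 window held 1 CCAAT box, beginning 134 bases before the start, and 4 GC boxes, at 83, 29, 25 and 21 bases before it, of which the last 3 overlap one another. Hdac2 held no CCAAT box and 1 GC box, at 23 bases. Hdac3 held no CCAAT box and 1 GC box, at 105 bases. Among the other genes, a CCAAT box lay at 225 bases before the start of Sin3a and at 123 bases before that of Rcor1. GC boxes numbered 4 in Rcor1, 3 in Ncor1, 3 in Mta1 and 2 in Sin3a, whereas Hdac8 and Tbl1xr1 held neither motif. Thus 3 of the 9 windows held a CCAAT box, against 34.0% of all 33469 windows of this length in the table, and 7 held a GC box, against 30.5%. The GC content was 72.4% for Hdac1, 68.8% for Hdac2 and 62.0% for Hdac3, with a median of 51.2% over all windows. It was 62.0% to 82.4% in the 7 windows with a GC box, and 38.8% for Hdac8 and 44.4% for Tbl1xr1. The windows behind the 34.0% and 30.5% were not matched on GC content, so these shares do not allow for it. These matches describe the letters in the window and were not tested for use in the hippocampus.

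The libraries held 15118203 to 18533520 counts each. All 6 neuronal markers were tested, and their summed level was 4128 to 5390 CPM in untreated and 4612 to 5272 CPM in RG2833 libraries. Of 6 dentate granule cell markers 3 were tested, with sums of 102 to 259.9 and 135.8 to 224.8 CPM. Of these 3, Prox1 went down to 4.30 CPM and C1ql2 to 7.10 CPM in an untreated library, where the highest untreated values were 50.5 and 142 CPM. Untreated replicate 2 and RG2833 replicate 1 stood apart in choroid plexus markers: all 10 were tested, and their sums ran from 143 to 10510 CPM in untreated and from 111 to 11440 CPM in RG2833 libraries. Untreated replicate 3 stood apart in granule cell and microglial markers. Its mean log2 CPM was 3.83 for granule cell markers, where the other 9 libraries ran from 5.34 to 6.30, and 6.32 for microglial markers, where the others ran from 5.36 to 6.00.

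For none of the 9 transcripts did the difference between RG2833 and untreated rats pass the test. In edgeR's quasi-likelihood fit 0% of the 12161 genes passed an adjusted p under 0.05, and 0 of the 9 did. At an edgeR unadjusted p under 0.05 there were 0 of the 9, against 5.66% of all genes tested (688). For 0 of the 9 did the values of the 2 groups fail to overlap, against 1.00% of all genes (122). Of the 9 genes 5 were lower and 4 higher in RG2833 rats, against 53.5% lower over all genes, and their median log2 fold change was -0.04, against -0.01. The intervals were narrow: for all 9 genes the 95% interval of the log2 fold change lay within a 1.5-fold change either way, which held for 75.1% of all genes tested. The intervals of several genes were narrower still: that of Mta1 ran from 0.925-fold to 1.093-fold and that of Sin3a from 0.869-fold to 1.03-fold.

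**Figure D1:**
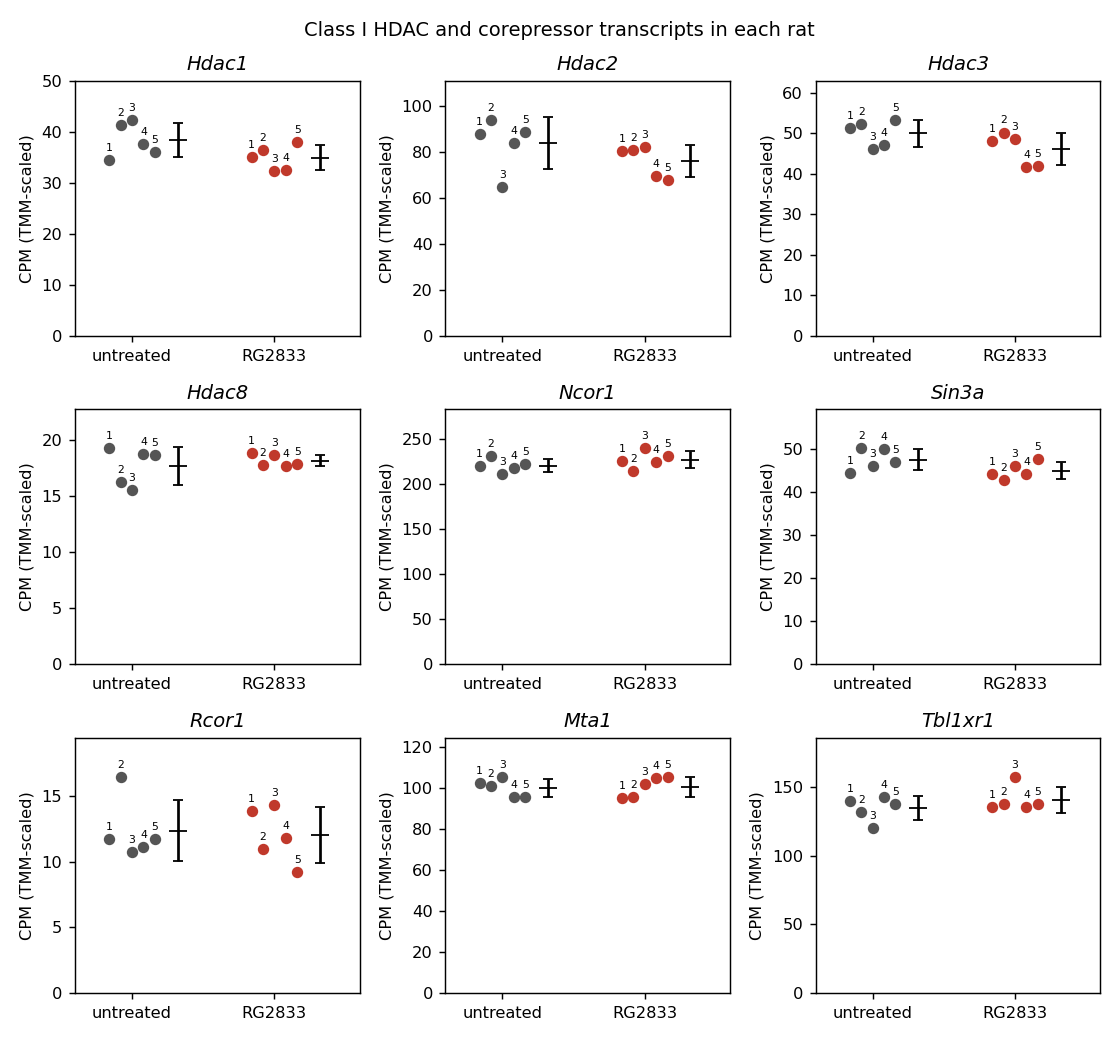
Level of each of the 9 transcripts in each rat, in CPM on the TMM-scaled library size, with the replicate number above each point and the mean and SD (n = 5) beside each group; the vertical axes start at 0. The groups overlap in every panel, and untreated replicate 3 has the lowest Hdac2 level, 64.6 CPM.

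Hdac1, a target of the drug, stood in untreated replicates 1 to 5 at 34.6, 41.5, 42.4, 37.7 and 36.2 CPM, and in RG2833 replicates 1 to 5 at 35.2, 36.5, 32.5, 32.7 and 38.1 CPM. The untreated mean lay above all 5 treated rats, yet the groups overlapped, since untreated replicate 1 was lower than 3 of the treated rats. The means were 38.5 ± 3.39 and 35.0 ± 2.42 CPM (SD, n = 5 each), so that the log2 fold change was -0.14 (SE 0.08, 95% interval -0.30 to 0.03, edgeR adjusted p = 0.841). Without untreated replicate 1 the edgeR unadjusted p was 0.0458, with an adjusted p of 0.913 and a log2 fold change of -0.17. Without untreated replicate 3, the highest value, the log2 fold change was -0.10 (edgeR adjusted p = 0.526), and in limma-voom with sample weights it was -0.09 (adjusted p = 0.642). The near copy Hdac1l took at most 3.65 expected counts in a library, where Hdac1 took at least 508, and reads shared between such copies are divided by estimation, so both levels carry that uncertainty.

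Hdac2, the paralog that pairs with Hdac1, stood at 87.7, 93.9, 64.6, 83.8 and 88.8 CPM in untreated replicates 1 to 5 and at 80.5, 81.0, 82.0, 69.6 and 67.8 CPM in RG2833 replicates 1 to 5. The lowest of all 10 values was that of an untreated rat, replicate 3, and the other 4 untreated rats lay above all 5 treated ones. The means were 83.8 ± 11.3 and 76.2 ± 6.90 CPM (n = 5 each), so that the log2 fold change was -0.14 (SE 0.10, 95% interval -0.36 to 0.09, edgeR adjusted p = 0.901). Without untreated replicate 3 the log2 fold change was -0.22 and the edgeR unadjusted p 0.0166, with an adjusted p of 0.312. In that fit 14.2% of all 12196 genes tested had an unadjusted p under 0.05, so Hdac2 was 1 of 1732 genes.

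Hdac3, the catalytic subunit of the NCoR complex, stood at 51.4, 52.3, 46.0, 47.0 and 53.3 CPM in untreated and at 48.2, 50.2, 48.5, 41.7 and 41.8 CPM in RG2833 replicates 1 to 5. RG2833 replicates 4 and 5 were below every untreated rat, and the other 3 treated rats lay inside the untreated range. The means were 50.0 ± 3.26 and 46.1 ± 4.01 CPM (n = 5 each), so that the log2 fold change was -0.12 (SE 0.07, 95% interval -0.28 to 0.05, edgeR adjusted p = 0.852). Its log2 fold change ran from -0.15 to -0.08 when each library was left out in turn.

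Hdac8, the enzyme that acts on cohesin, stood at 19.2, 16.2, 15.5, 18.7 and 18.7 CPM in untreated and at 18.8, 17.8, 18.6, 17.7 and 17.8 CPM in RG2833 replicates 1 to 5. The treated values lay within the untreated range and spread less, with a coefficient of variation of 2.87% against 9.54%; this difference in spread was not tested. The log2 fold change was 0.04 (SE 0.07, 95% interval -0.13 to 0.20, edgeR adjusted p = 0.972). It was -0.005 without untreated replicate 3, the lowest value, and -0.013 without the 2 libraries rich in choroid plexus transcripts.

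Among the scaffolds, Ncor1, the platform that holds Hdac3, stood at 220.5, 231.3, 211.4, 218.0 and 222.5 CPM in untreated and at 225.6, 214.5, 239.8, 224.2 and 231.2 CPM in RG2833 replicates 1 to 5. The ranges overlapped over most of their length, and the log2 fold change was 0.04 (SE 0.05, 95% interval -0.08 to 0.16, edgeR adjusted p = 0.946). It was 0.02 without RG2833 replicate 3, the highest value, and 0.06 without RG2833 replicate 2. Ncor1 had the tightest interval of the 9, from 0.949-fold to 1.115-fold. Tbl1xr1, a WD-repeat subunit of the same complex that takes part in exchanging corepressors for coactivators, stood at 139.7, 132.2, 120.4, 142.8 and 137.6 CPM in untreated and at 135.8, 137.4, 157.5, 135.3 and 137.9 CPM in RG2833 replicates 1 to 5. All 5 treated rats lay above the untreated mean of 134.6 CPM, while 3 of the 5 untreated rats did too. Its log2 fold change was 0.07 (SE 0.07, 95% interval -0.08 to 0.21, edgeR adjusted p = 0.921). It was 0.02 without RG2833 replicate 3, the highest value, and 0.03 without untreated replicate 3, the lowest.

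Sin3a, the scaffold of the Sin3 complex, ran from 44.6 to 50.3 CPM in untreated and from 42.9 to 47.9 CPM in RG2833 rats. It had a log2 fold change of -0.08 (SE 0.06, 95% interval -0.20 to 0.04, edgeR adjusted p = 0.882), and 4 of 5 treated rats lay below the untreated mean. Mta1, a NuRD subunit that recruits Hdac1 and Hdac2, ran from 95.4 to 105.2 CPM and from 94.9 to 105.3 CPM, with means of 99.8 ± 4.25 and 100.4 ± 5.05 CPM (n = 5 each). Its log2 fold change was 0.01 (SE 0.05, 95% interval -0.11 to 0.13, edgeR adjusted p = 0.996), the nearest to 0 of the 9. Rcor1, the CoREST scaffold that joins Hdac1 or Hdac2 to the demethylase Kdm1a, stood at 11.7, 16.5, 10.8, 11.1 and 11.8 CPM in untreated and at 13.9, 11.0, 14.3, 11.8 and 9.20 CPM in RG2833 replicates 1 to 5. Untreated replicate 2 and RG2833 replicates 1 and 3 were the high values, and untreated replicate 2 and RG2833 replicate 1 are the libraries rich in choroid plexus transcripts. Over the 10 rats Rcor1 had r = 0.674 with the choroid plexus list (permutation p = 0.0335, adjusted over 90 relations 0.241; rho = 0.358, p = 0.315), and r = 0.001 without those 2 libraries. The log2 fold change of Rcor1 was -0.04 (SE 0.15, 95% interval -0.38 to 0.29, edgeR adjusted p = 0.988), and 0.02 without the same 2 libraries. Rcor1 had the widest interval of the 9 and the fewest counts, 133 to 322 per library.

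**Figure D2:**
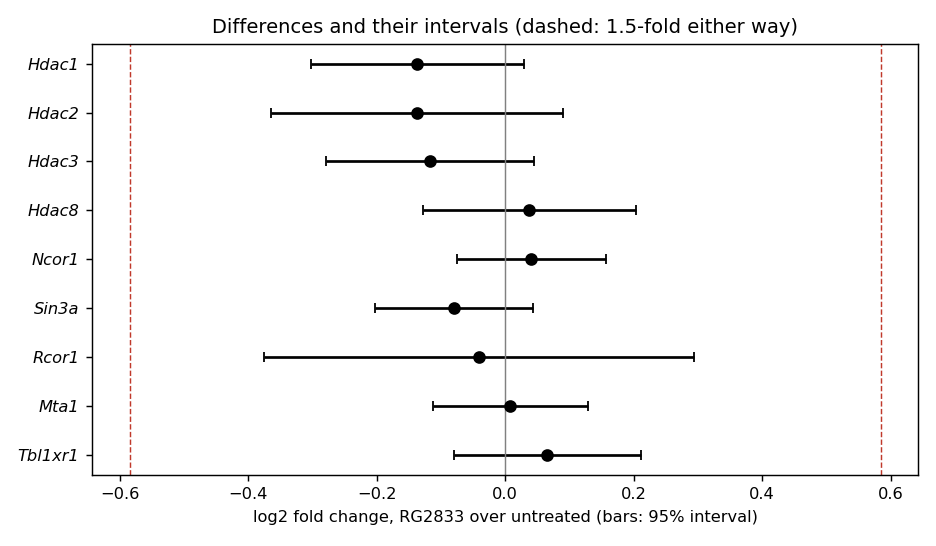
Log2 fold change of each of the 9 transcripts, RG2833 over untreated, with its 95% interval from edgeR's quasi-likelihood fit (5 rats a group); dashed lines mark a 1.5-fold change either way. All 9 intervals include 0 and lie between the dashed lines, and that of Rcor1 is the widest.

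The spread between rats differed among the 9 transcripts. Their median biological coefficient of variation was 10.5%, against 14.4% over all genes tested. edgeR estimates this value for each gene within groups but draws it toward that of genes at a similar level. It was 8.41% for Ncor1, and 1.0% of genes had a lower value; it was 8.72% for Mta1 (2.7%) and 9.05% for Sin3a (5.0%). It was 10.6% for Hdac1 (19.2% of genes lower) and 10.5% for Hdac3 (18.8%). Hdac2 had 13.2% (41.9% of genes lower) and Rcor1 18.1% (66.1%). Genes were not matched on their counts for this. Plain coefficients of variation of CPM, in untreated and then RG2833 rats, were 3.28% and 4.12% for Ncor1. They were 4.26% and 5.03% for Mta1 and 5.27% and 4.25% for Sin3a. For Hdac2 they were 13.5% and 9.06%, and for Rcor1 18.9% and 17.6%. The edgeR values of Ncor1, Mta1 and Sin3a thus lay above the spread seen in these rats.

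The complexes were then followed through 7 lists of their subunits and partners. The lists held 53 tested genes in all, of which 8 are among the 9 genes above (all but Hdac8), and some stand in more than 1 list, since Hdac1, Hdac2, Rbbp4 and Rbbp7 are shared. At an adjusted p under 0.05, 0 of the 53 passed (0% of all genes). At an edgeR unadjusted p under 0.05 there were 3, or 5.66%, all lower in RG2833 rats, against 5.66% of all genes in either direction, so the share was near that of all genes. DESeq2 also gave 3, of which 2 were lower and 1, Gatad2a, higher. Of the 53 genes 35 were lower (66.0%), against 53.5% of all genes, and their median log2 fold change was -0.04, against -0.01. Of the 45 that are not among the 9, 30 were lower (66.7%) and 3 had an unadjusted p under 0.05 (6.67%). By other scalings, filters and tools the share of lower genes was 56.6% to 66.0%, and it was 54.7% without untreated replicate 2. The share over all genes moved as well: it was 48.7% in limma-trend, where that of the 53 genes was 56.6%, and 49.3% without untreated replicate 2.

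In the Sin3 list 13 of 15 tested genes were lower and 2 higher, with a median log2 fold change of -0.06. Ing2, a reader of trimethylated histone H3 that tethers the complex to active promoters, ran from 23.1 to 25.1 CPM in untreated and from 20.8 to 22.9 CPM in RG2833 rats. These groups did not overlap, which held for 1 of the 53 genes and for 1.00% of all genes. The log2 fold change was -0.15 (SE 0.05, edgeR unadjusted p = 0.0207, adjusted p = 0.841). Arid4a, a DNA-binding subunit, ran from 48.0 to 57.7 and from 46.1 to 48.6 CPM. Its log2 fold change was -0.14 (SE 0.06, unadjusted p = 0.0369, edgeR adjusted p = 0.841). The highest value in the list was that of Ing1 (0.09, SE 0.15). For Sap30, Sap30l, Sap130 and Suds3 no row was matched.

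In the MiDAC list all 5 genes were lower, with a median of -0.13, and 1 of them, Dnttip1, lay under an unadjusted p of 0.05. Dnttip1, which links Hdac1 to the scaffold Mideas, ran from 27.7 to 29.97 CPM without the drug and from 24.6 to 28.6 CPM with it. Its log2 fold change was -0.13 (SE 0.06, unadjusted p = 0.0491, edgeR adjusted p = 0.841). With RLE size factors its edgeR unadjusted p was 0.0537, in DESeq2 0.0711 and in limma-voom 0.136, so Dnttip1 lay at the edge of that threshold. The value nearest 0 was that of Trerf1 (-0.06, SE 0.10), and Hdac1 and Hdac2 are 2 of the 5. Under the replicate block, and without RG2833 replicate 4 or RG2833 replicate 5, 0 of the 53 genes had an unadjusted p under 0.05, when 3.30%, 3.07% and 3.47% of all genes did. Without untreated replicate 1 the only one was Hdac1 (1.89% of the 53), when 5.21% of all genes did. Without untreated replicate 3 there were 10 (18.9%, 6 lower and 4 higher), when 14.2% of all genes did; Ing2 was among them, Arid4a and Dnttip1 were not.

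In the NuRD list 7 of 12 genes were lower and 5 higher, with a median of -0.001; the range was from -0.14 for Hdac2 to 0.25 (SE 0.15) for Cdk2ap1, a small subunit also known as an inhibitor of Cdk2. In the CoREST list 9 of 12 were lower, with a median of -0.06. The range was from -0.27 (SE 0.13, edgeR adjusted p = 0.841) for Rcor3, a paralog of Rcor1, to 0.13 (SE 0.10) for Hmg20b, a DNA-binding subunit. In the NCoR list 4 of 6 were higher, with a median of 0.05, from -0.12 for Hdac3 to 0.13 (SE 0.20) for Coro2a, a coronin that binds the complex. In the main fit 0 of the 12, 12 and 6 genes had an edgeR unadjusted p under 0.05. Rcor3 fell under it with upper-quartile normalization, in limma-voom, and without untreated replicate 3 or RG2833 replicate 3. Other genes of these lists also did so in some alternatives. No row was matched for Chd3, Chd4 and Mta3 of the NuRD list or for Phf21a, Zmym2 and Gse1 of the CoREST list.

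Among the inositol phosphate kinases, which make the small molecule that bridges Hdac3 and its corepressor, 3 of 5 were lower, from -0.22 (SE 0.20) for Ippk to 0.07 (SE 0.06) for Ipmk. Among cohesin genes, 4 of 6 were lower, from -0.14 (SE 0.09) for Smc1a to 0.17 (SE 0.09) for Rad21. The Hdac8 substrate Smc3 had means of 76.2 ± 4.24 CPM without the drug and 72.7 ± 4.80 CPM with it (n = 5 each), which gave -0.07 on the log2 scale (SE 0.06). In these lists, too, 0 genes had an edgeR unadjusted p under 0.05 in the main fit. No row was matched for Ip6k3, Nipbl and Esco2.

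**Figure D3:**
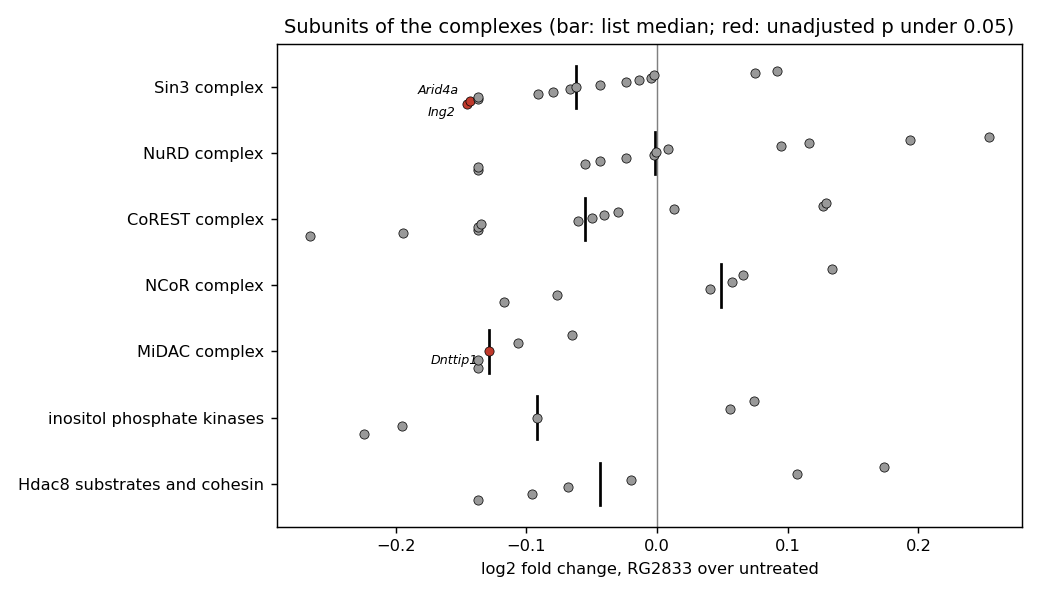
Log2 fold change, RG2833 over untreated, of each tested gene in 7 lists of complex subunits and partners (1 point a gene; Hdac1, Hdac2, Rbbp4 and Rbbp7 recur); black bars are list medians and red points have an unadjusted p under 0.05. The 3 red points, Ing2, Arid4a and Dnttip1, lie to the left of 0, and no list median reaches 0.2 in size.

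Paralogs that take the same place in a complex were compared as log2 ratios within each library, which do not depend on how libraries are scaled. Of 5 ratios 0 passed an exact permutation test (two-sided; smallest possible p 0.00794), and all p adjusted over the 5 were 0.984. Levels of different genes were not set against each other, since no transcript lengths were used here, so only the shift of a ratio between groups has a meaning. The Hdac1 to Hdac2 ratio was -1.34, -1.18, -0.60, -1.15 and -1.29 in untreated and -1.19, -1.15, -1.33, -1.09 and -0.83 in RG2833 replicates 1 to 5. The shift was -0.005 (SDs 0.30 and 0.18, n = 5 each, exact permutation p = 0.952), and untreated replicate 3 and RG2833 replicate 5 were highest. Without untreated replicate 3 the shift was 0.12 (exact permutation p = 0.294). The Sin3a to Sin3b ratio shifted by -0.01 (exact permutation p = 0.81), that of Mta1 to Mta2 by 0.06 (exact p = 0.524; 0.02 without untreated replicate 2 or RG2833 replicate 4, and 0.10 without untreated replicate 3) and that of Tbl1xr1 to Tbl1x by 0.002 (exact p = 0.984). The shift of Tbl1xr1 to Tbl1x was -0.11 without untreated replicate 3 (exact permutation p = 0.27).

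The Rcor1 to Rcor3 ratio had the largest shift of the 5. It was 0.65, 0.78, 0.74, 0.31 and 0.64 in untreated and 1.16, 0.66, 0.93, 1.01 and 0.42 in RG2833 replicates 1 to 5, so 4 of 5 treated rats lay above the untreated mean. The shift was 0.21 (SDs 0.18 and 0.29, n = 5 each, exact permutation p = 0.206). Without RG2833 replicate 5 it was 0.32 with an exact p of 0.0397, unadjusted for the 5 ratios. Without RG2833 replicate 1 it was 0.13 (exact p = 0.413), and without untreated replicate 4 likewise 0.13 (exact p = 0.389). Rcor3 itself ran from 6.39 to 9.58 CPM in untreated and from 5.83 to 7.48 CPM in RG2833 rats.

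**Figure D4:**
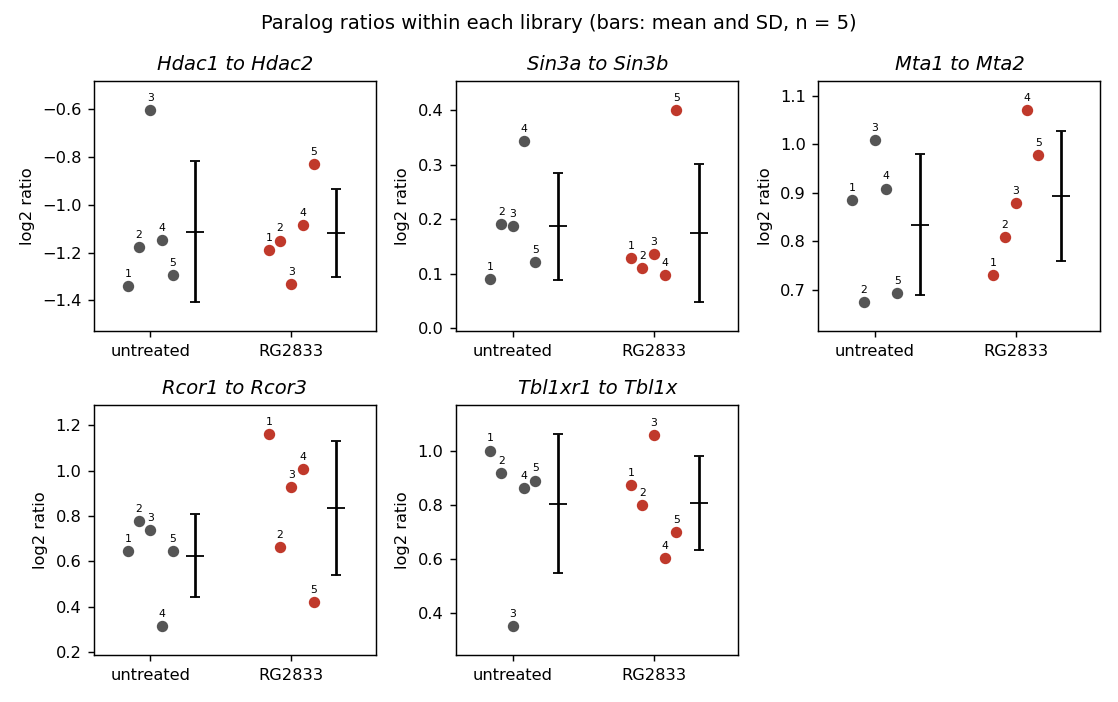
Log2 ratio of 5 pairs of paralogs within each library, with the replicate number above each point and the mean and SD (n = 5) beside each group; the axes do not start at 0. The groups overlap in all 5 panels, and untreated replicate 3 stands apart in the ratios of Hdac1 to Hdac2 and of Tbl1xr1 to Tbl1x.

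The 9 genes were then compared with one another across the 10 rats, on log2 CPM. Of the 36 pairs 0 passed an adjusted p under 0.05 by a permutation test of Pearson's r with 100000 resamples, and 5 had an unadjusted p under 0.05. The highest was that of Hdac2 and Hdac3, with r = 0.853 (permutation p = 0.00209, adjusted over 36 pairs 0.0752) and Spearman's rho = 0.855 (permutation p = 0.00284, adjusted 0.102). Their r was 0.915 without untreated replicate 3 and RG2833 replicate 5, the libraries farthest from the median of Hdac2. It ran from 0.813 to 0.945 over 14 alternatives and passed in 2 of them: without untreated replicate 3 (r = 0.945, exact permutation, adjusted p = 0.0312) and on library totals without TMM factors (r = 0.911, adjusted p = 0.0108). Both genes share the library's depth and cell makeup. For Hdac1 and its paralog no relation passed: r between Hdac1 and Hdac2 was -0.108 (permutation p = 0.764; rho = -0.127, p = 0.731) and 0.001 without the 2 libraries farthest from the median.

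The next pairs rested on few rats. Hdac8 and Tbl1xr1 had r = 0.739 (permutation p = 0.0105, adjusted 0.16; rho = 0.685, p = 0.0335), and 0.301 without the 2 libraries farthest from the median of Hdac8. Hdac1 and Hdac8 had r = -0.752 (permutation p = 0.0133, adjusted 0.16; rho = -0.503, p = 0.144), and -0.052 without untreated replicates 2 and 3. Hdac1 and Tbl1xr1 had r = -0.714 (permutation p = 0.0191, adjusted 0.172; rho = -0.479, p = 0.166), and -0.385 without the same 2 libraries. Ncor1 and Tbl1xr1 had r = 0.636 (permutation p = 0.0479, adjusted 0.305; rho = 0.212, p = 0.562), and -0.600 without untreated replicate 3 and RG2833 replicate 3. Untreated replicate 3 had the highest Hdac1 level and the lowest levels of Hdac2, Hdac8, Ncor1 and Tbl1xr1.

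Levels of Hdac2 moved with markers of cell types. Each of the 9 genes was compared with the mean log2 CPM of 9 marker lists and with the library total, 90 relations in all. Of these 6 passed an adjusted p under 0.05 by Pearson's r, and 0 passed by Spearman's rho, whose smallest adjusted p was 0.0789. Hdac2 was lower in rats with more microglial transcripts (10 markers): r = -0.948 (permutation p = 4e-05, adjusted 0.0036), rho = -0.867 (permutation p = 0.00197, adjusted 0.0789). It was likewise lower with more astrocyte transcripts (r = -0.880, permutation p = 0.00068, adjusted 0.0204; rho = -0.855, p = 0.00263) and endothelial transcripts (r = -0.884, permutation p = 0.00201, adjusted 0.0301; rho = -0.770, p = 0.0121). It was higher with more granule cell transcripts (r = 0.823, permutation p = 0.00039, adjusted 0.0175; rho = 0.806, p = 0.00716).

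Hdac3 had r = -0.846 with the astrocyte list (permutation p = 0.002, adjusted 0.0301; rho = -0.867, p = 0.00205). Its r was -0.798 with endothelium (permutation, adjusted p = 0.0917) and -0.693 with microglia (adjusted p = 0.241). With the library total it was 0.650 (permutation p = 0.0429, adjusted 0.276), so these 3 did not pass. Hdac8 had r = 0.827 with the neuronal list (permutation p = 0.00154, adjusted 0.0301; rho = 0.685, p = 0.0345). Without the 2 libraries farthest from the median of each list, r was -0.907 for Hdac2 with microglia, -0.803 with astrocytes, -0.725 with endothelium and 0.748 with granule cells. It was -0.619 for Hdac3 with astrocytes and 0.585 for Hdac8 with neurons. On deviations from the group means, r for Hdac2 with microglia was -0.975, so the relation was as strong within groups as over all rats.

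The relations of Hdac2 and Hdac3 leaned on 3 rats. Untreated replicate 3 and RG2833 replicates 4 and 5 had the 3 lowest Hdac2 levels and the 3 highest means of microglial, astrocyte and endothelial markers. Over the other 7 rats r was -0.737 for Hdac2 with microglia (exact permutation p = 0.0615) and -0.741 with astrocytes (exact p = 0.0677), and -0.228 with endothelium (exact p = 0.622). For Hdac2 with granule cells it was 0.532 (exact permutation p = 0.215) and for Hdac3 with astrocytes -0.426 (exact p = 0.338). Hdac3 with the library total had r = 0.884 over these 7 (exact permutation p = 0.0129, unadjusted). Hdac8 with neurons had r = 0.705 (exact permutation p = 0.096), against 0.675 without untreated replicate 3 alone. These 3 rats were singled out after their values were seen.

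**Figure D5:**
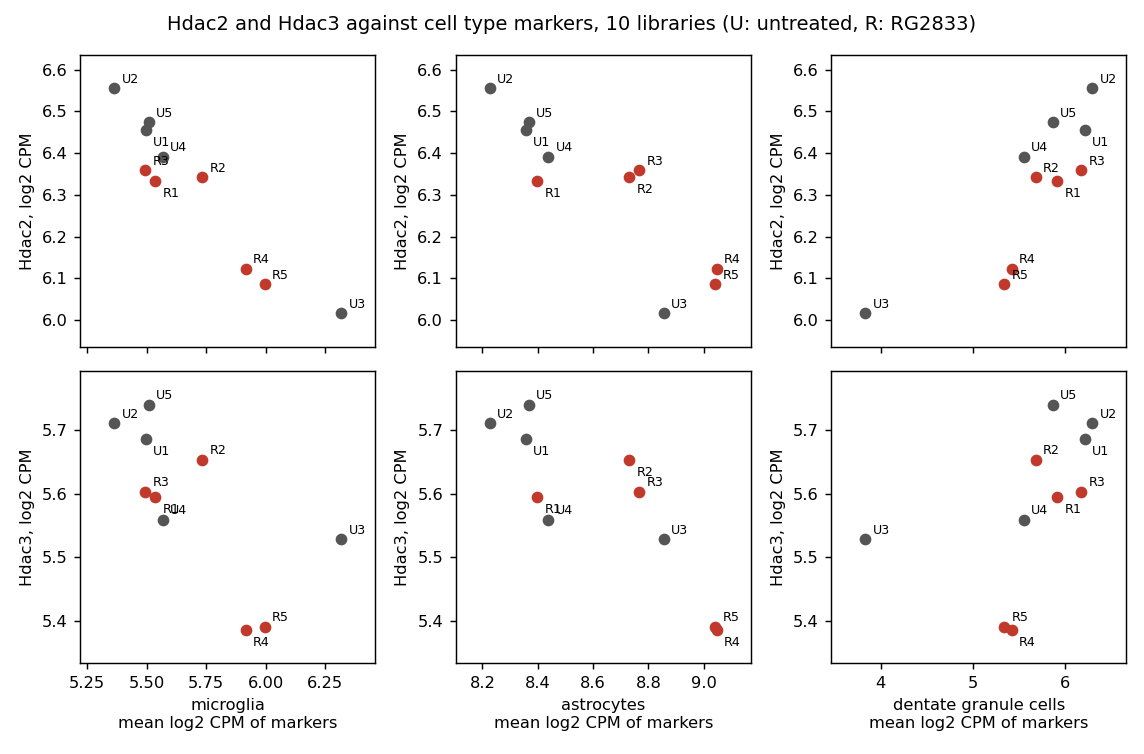
Hdac2 (top) and Hdac3 (bottom), in log2 CPM, against the mean log2 CPM of microglial, astrocyte and dentate granule cell markers; each point is 1 of 10 libraries, named by group (U, untreated; R, RG2833) and replicate. Hdac2 is lowest in U3, R4 and R5, the libraries with the highest microglial means (6.32, 5.92 and 6.00).

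Of the paralog ratios, those of Hdac1 to Hdac2 and Tbl1xr1 to Tbl1x moved with the granule cell, microglial, neuronal and endothelial markers. That of Mta1 to Mta2 moved with the astrocyte markers. Of 45 relations between the 5 ratios and the 9 marker lists, computed after the ratios had been seen, 9 passed an adjusted p under 0.05 by r and 8 by rho. The Hdac1 to Hdac2 ratio had r = -0.912 with granule cell markers (permutation p = 0.00045, adjusted 0.00414; rho = -0.867, p = 0.00234) and r = 0.915 with microglial markers (permutation p = 0.00046, adjusted 0.00414; rho = 0.855, p = 0.00304). Without the 2 libraries farthest from the median of each list, r was -0.882 and 0.612. The Tbl1xr1 to Tbl1x ratio had r = 0.937 with granule cell markers (permutation p = 0.00022, adjusted 0.00414; rho = 0.915, p = 0.00066) and r = -0.937 with microglial markers (permutation p = 0.00038, adjusted 0.00414; rho = -0.952, p = 0.00011). Here r without the 2 farthest libraries was 0.912 and -0.849. The Mta1 to Mta2 ratio had r = 0.815 with astrocyte markers (permutation p = 0.00598, adjusted 0.0299; rho = 0.806, p = 0.00718), and 0.686 without the 2 farthest libraries. Without untreated replicate 3 alone, r with granule cell and then microglial markers was -0.771 and 0.804 for Hdac1 to Hdac2. For Tbl1xr1 to Tbl1x it was 0.862 and -0.857. The Hdac1 to Hdac2 ratio also passed by r with neuronal markers (r = -0.878, permutation p = 0.00021, adjusted 0.00414) and endothelial markers (r = 0.876, permutation p = 0.00087, adjusted 0.00652). So did Tbl1xr1 to Tbl1x, with r = 0.850 (permutation p = 0.00187, adjusted 0.012) and r = -0.802 (permutation p = 0.0048, adjusted 0.027). The last did not pass by rho (-0.770, adjusted 0.0595).

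In the comparison of the groups, all 9 tested astrocyte markers (of 10 listed) were higher in RG2833 rats, with a median log2 fold change of 0.33, and 3 had an unadjusted p under 0.05, while 0 passed the adjustment. Over all genes 46.5% were higher and 5.66% had an unadjusted p under 0.05. The summed level of the astrocyte markers was 5409 to 7903 CPM in untreated and 6123 to 8743 CPM in RG2833 libraries, and none of the 9 was near 0 in any group. All 7 tested endothelial markers (of 8 listed) were higher as well, with a median of 0.27, 0 of them at an unadjusted p under 0.05, and sums of 283.5 to 554.6 and 337.2 to 606.4 CPM. Of the microglial markers 7 of 10 were higher, with a median of 0.07 and sums of 570.3 to 1062 and 613.2 to 855.9 CPM. Other lists went the other way. Lower were 5 of 6 neuronal markers (median -0.07), all 3 tested granule cell markers (-0.04) and 6 of 8 oligodendrocyte markers (-0.17). So were all 3 tested red blood cell markers (-0.49). In these lists 0 genes had an edgeR unadjusted p under 0.05, and over all genes 53.5% were lower. The part of these cell types in the lower means of Hdac1, Hdac2 and Hdac3 was not tested.

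The genes whose pattern over the 10 rats was most like that of Hdac1 were Akap8 (r = 0.929, rho = 0.903), Slfn13 (r = 0.907, rho = 0.915) and Dnmt3b (r = 0.906, rho = 0.903). For Hdac3 they were Pp3111 (r = 0.969, rho = 0.964), Abt1 (r = 0.967, rho = 0.976) and Nrbp1 (r = 0.966, rho = 0.952). They are the 3 highest of all genes tested for each, so their values are a description with no test.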

How the data were processed

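RNA from 10 left hippocampi was purified on columns and sequenced as stranded mRNA libraries (per the labels), 1 library a rat. The submitters' processing notes name bcl2fastq 2.17, Bowtie2 2.1.0, RSEM 1.2.15, edgeR and the rn6 build, with no role or order; the annotation and filters are not given in the sources used here. The authors deposited expected counts per gene, of which 11.6% of values were not whole. They also deposited a signal table of counts per 1000000 of a TMM-scaled library size. For each library 100% of its values above 0 were whole multiples of 1 step (within 0.05 reads) and 100% equalled the rounded counts, so a count test on the recovered reads gave the same 0 genes called.

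Expected counts were rounded and tested with edgeR 4.0.16 (R 4.3.3): filterByExpr (minimum count 10, minimum total 15), TMM, robust quasi-likelihood F test, Benjamini-Hochberg adjustment over all 12161 genes, threshold 0.05. Standard errors and 95% intervals came from the F statistic. CPM use the TMM-scaled library sizes of this fit, which differ from the authors' values for the 9 genes by factors of 0.971 to 1.01. Ratios, correlations and marker means use log2 CPM with a prior count of 2. DESeq2 1.42.0 and limma 3.58.1 served as alternatives. The fits were tested on simulated data. Over 45 pairs of libraries the chi-square per gene was at least 7.2, so none was counted as a duplicate.

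The genes, lists and tests were chosen with earlier results of these data known. The text names the 9 genes, the paralog each ratio pairs them with, every listed subunit at an unadjusted p under 0.05, the extremes of each list, and for Hdac1 and Hdac3 the 3 genes of most similar pattern; Smc3, Kdm1a and Mideas are named for their roles, and Gatad2a, Prox1 and C1ql2 were chosen after their values were seen. A symbol absent from the table was matched through a RefSeq synonym (GRCr8 table; Rcor1 as RGD1305743, Mideas as RGD1306119, Sinhcaf as Fam60a, Slco1a4 as Slco1a2). A further gene of the lists, with its ratio, is not reported here. The main fit did not pair the rats by replicate number, as nothing in the labels says that they were paired. Where nothing says more of how rats were allotted, p-values measure the spread between these 10 rats.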

Additional observations from a re-analysis of the deposited data

Results flagged for a closer look

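Each set of 5 values, 28 in all, was searched for a rat whose gap to its nearest neighbour exceeded 0.71 of the range of its group. This was met by 6 sets, where chance gives 1.4. In 2 of them the rat was untreated replicate 3. Its Hdac1 to Hdac2 ratio was -0.60, against -1.34 to -1.15 in the other untreated rats, a gap of 0.741 of the range. Its Tbl1xr1 to Tbl1x ratio was 0.35, against 0.86 to 1.00, a gap of 0.789. Its mean log2 CPM of granule cell markers was 3.83, against 5.55 to 6.30 in the other untreated rats. Over the 10 rats the Hdac1 to Hdac2 ratio had r = -0.912 with these markers (permutation p = 0.00045, adjusted over 45 relations 0.00414; rho = -0.867, p = 0.00234) and the Tbl1xr1 to Tbl1x ratio r = 0.937 (permutation p = 0.00022, adjusted 0.00414; rho = 0.915, p = 0.00066). Without untreated replicate 3 these were -0.771 and 0.862. Over the 10 rats both ratios passed by r with microglial, neuronal and endothelial markers too.

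Rcor1 in untreated replicate 2 was at 16.5 CPM, against 10.8 to 11.8 in the other untreated rats, a gap of 0.82. In that library the choroid plexus markers had a mean log2 CPM of 7.61, against 1.37 to 3.34 in the other 4. Over all 10 rats Rcor1 had r = 0.674 with this list (permutation p = 0.0335, adjusted 0.241; rho = 0.358, p = 0.315), and 0.001 without untreated replicate 2 and RG2833 replicate 1. Tbl1xr1 in RG2833 replicate 3 was at 157.5 CPM, against 135.3 to 137.9 in the other treated rats, a gap of 0.885. The Sin3a to Sin3b ratio in RG2833 replicate 5 was 0.40, against 0.10 to 0.14, a gap of 0.871. The Rcor1 to Rcor3 ratio in untreated replicate 4 was 0.31, against 0.64 to 0.78, a gap of 0.715.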

How the results depend on the processing

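The number of the 9 genes called stayed at 0 under all 20 alternatives, as did that of the 53 complex genes. The fit on recovered reads, among the 20, used in effect the counts of the main fit, so its outcome was fixed in advance. Over all genes, 0 were called in 19 of them and 7 in DESeq2. The number of genes with an unadjusted p under 0.05 was 1263 in limma-voom with sample weights, 401 under the replicate block and 375 to 1732 when each library was left out. Of the 53 complex genes there was 1 in limma-trend on the authors' CPM, 0 under the replicate block and 0 to 10 with a library left out; of the 9 genes there were 0 to 1. The sign of Hdac1, Hdac2, Hdac3, Sin3a, Ncor1 and Tbl1xr1 held under all 20.

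Small values turned. In limma-voom Hdac8 was at -0.012 and Rcor1 at 0.0034; without the 2 libraries rich in choroid plexus RNA they were at -0.013 and 0.023, and the Sin3a to Sin3b shift was 0.0001. With a library left out, Hdac8 ran from -0.0050 to 0.0700, Rcor1 from -0.11 to 0.0856, Mta1 from -0.0071 to 0.0278 and the median of the 9 from -0.0880 to 0.0076. The ratio shifts ran from -0.0769 to 0.122 for Hdac1 to Hdac2, from -0.0686 to 0.027 for Sin3a to Sin3b, from -0.11 to 0.0530 for Tbl1xr1 to Tbl1x, from 0.015 to 0.103 for Mta1 to Mta2 and from 0.13 to 0.32 for Rcor1 to Rcor3. Of 36 pairs 1 passed without TMM factors, and 0 to 1 with a library left out; leaving out each library for the pairs, apart from untreated replicate 3, and the recovered reads were added after the data were seen.

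Deviations of same-numbered rats from their group means correlated at r from -0.487 to -0.034, and 0 of the 10 libraries correlated best with its own number. The block rests on a shared number only, and these values cannot settle whether the rats were paired. Depth limited Rcor1 most, at 133 counts in 1 library.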
